A study of Mus musculus with 12 samples.

Results

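The genes described here are 47 interferon-stimulated genes, chosen by symbol and looked up by Ensembl identifier in a read count table of 54532 genes from mouse whole lung. All 47 were found in the table, and all 47 were among the 17473 genes with enough counts to be tested. They comprised 4 sensors of foreign nucleic acid, 3 transcription factors, 4 IFIT genes, 6 OAS genes, 3 genes of the ISG15 system, 7 Mx and other antiviral genes, 3 genes of the PARP9, PARP14 and DTX3L group, 7 interferon-inducible GTPases, 2 CXCR3 chemokines, the peptide transporter gene *Tap1*, and 7 other interferon-induced genes.

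Interferons are secreted cytokines that switch on antiviral genes in neighbouring cells. Type I and type III interferons signal through the kinases JAK1 and TYK2 to a complex that includes STAT2 and IRF9 and binds the interferon-stimulated response element (ISRE) before many antiviral genes. Interferon-gamma, made mainly by T cells and NK cells, signals through JAK1 and JAK2 and acts through gamma-activated sites (GAS) before genes such as the guanylate-binding proteins and the chemokines *Cxcl9* and *Cxcl10*. Many genes respond to both kinds of interferon, and in the lung both epithelial cells and immune cells express them.

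The study asked how *Rhoa*, a small GTPase gene, in Clara cells bears on allergic airway inflammation. Clara cells, or club cells in current usage, line the small airways and secrete protective proteins. All mice carried Cc10-Cre, in which the promoter of a club cell secretory gene drives Cre recombinase. WT mice carried Cc10-Cre alone, and CKO mice carried Cc10-Cre with both *Rhoa* alleles floxed. Mice of both kinds were given either PBS or CRE, an abbreviation that the labels do not spell out and that is distinct from the Cre recombinase. The 4 groups, WT_PBS, CKO_PBS, WT_CRE and CKO_CRE, held 3 lung libraries each, with the same batch number. Strain and age were not among the labels used here. Because whole lung was sequenced, fewer cells of a type and less RNA per cell cannot be told apart, and a gene lost only from club cells can leave the lung level little changed. No group with floxed *Rhoa* and no Cre was analysed here.

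Library totals ran from 16250674 to 21559210 counts, and levels are given as CPM, the count scaled to a TMM-adjusted library size. *Rhoa* itself had a CPM of 481 ± 8.88 in WT_PBS against 449 ± 45.1 in CKO_PBS, and of 525 ± 5.28 in WT_CRE against 502 ± 40.0 in CKO_CRE (mean ± SD, n = 3). It did not pass the test between genotypes under PBS (log2 -0.10 ± 0.10) or under CRE (log2 -0.07 ± 0.10), so the whole-lung counts do not check the genotype labels. The summed CPM of 6 alveolar type 2 cell markers was 18827 to 28518 in all 12 libraries, and that of 6 club cell markers was 3016 to 4778 under PBS and 621 to 1455 under CRE. Counts of Y-linked genes marked CKO_PBS replicate 2, WT_CRE replicates 2 and 3 and CKO_CRE replicates 2 and 3 as female and the others as male. The labels do not say that each library came from its own mouse, so p-values measure the spread between these libraries.

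The DNA before the start sites of these genes can hold the response elements by which interferon-activated factors act on them. The 6 examples shown all carry an ISRE core. Members without one are not shown, such as *Irf7*, with neither an ISRE nor a GAS core, and *Ifit2*, with a GAS core alone. RefSeq promoter windows (GRCm38.p6, 250 bases before to 50 bases after the start) were at hand for 36 of the 47 members. Both strands were searched for the ISRE core (GAAA, any 2 bases, then GAAA) and for the GAS core TTCNNNGAA. Matches are in capitals, the strand is that of the gene, and stretches were kept outside annotated exons, ending before the start. They are *Ifit1* at chr19:34640744-34640870 (+), *Ifit3* at chr19:34583309-34583528 (+), *Isg15* at chr4:156200819-156201038 (-), *Oas1a* at chr5:120907526-120907745 (-), *Cxcl10* at chr5:92348890-92349109 (-) and *Gbp5* at chr3:142496714-142496899 (+).
Ifit1: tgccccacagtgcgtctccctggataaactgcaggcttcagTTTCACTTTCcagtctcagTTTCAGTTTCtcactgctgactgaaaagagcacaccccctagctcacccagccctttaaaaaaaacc
Ifit3: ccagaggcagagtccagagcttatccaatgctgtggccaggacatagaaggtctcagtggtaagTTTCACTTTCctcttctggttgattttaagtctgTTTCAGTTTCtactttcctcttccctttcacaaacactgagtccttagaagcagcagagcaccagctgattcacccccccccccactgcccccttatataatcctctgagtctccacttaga
Isg15: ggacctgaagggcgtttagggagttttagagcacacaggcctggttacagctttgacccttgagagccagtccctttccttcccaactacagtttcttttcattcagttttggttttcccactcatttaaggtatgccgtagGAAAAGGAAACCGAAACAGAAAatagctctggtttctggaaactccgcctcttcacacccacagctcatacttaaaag
Oas1a: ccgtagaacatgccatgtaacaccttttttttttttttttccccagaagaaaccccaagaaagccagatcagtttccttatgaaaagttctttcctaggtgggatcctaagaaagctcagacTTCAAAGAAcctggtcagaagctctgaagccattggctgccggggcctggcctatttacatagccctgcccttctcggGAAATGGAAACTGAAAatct
Cxcl10: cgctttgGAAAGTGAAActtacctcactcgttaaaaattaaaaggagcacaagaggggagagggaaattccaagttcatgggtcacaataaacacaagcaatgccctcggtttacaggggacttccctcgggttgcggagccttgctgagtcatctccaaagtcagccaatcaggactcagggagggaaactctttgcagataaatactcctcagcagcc
Gbp5: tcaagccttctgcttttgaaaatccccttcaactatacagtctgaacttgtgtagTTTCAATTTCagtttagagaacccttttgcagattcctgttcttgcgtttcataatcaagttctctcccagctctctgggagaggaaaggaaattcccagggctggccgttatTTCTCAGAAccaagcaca

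Positions are those of the first base of a match, counted from -1 at the last base before the start. The counts are for the stretches printed, with a second GAS match of *Gbp5* elsewhere in its window. The *Ifit1* and *Gbp5* stretches were shortened to stay outside exons and end short of -1, so positions cannot be counted back from their printed ends. *Ifit1* had 2 ISRE cores, beginning at -104 and -85, and *Ifit3* had 2, beginning at -156 and -122. *Isg15* had 3 overlapping ISRE cores, the first beginning at -78 and the last at -66. *Oas1a* had 2 overlapping cores at -20 and -14 with a GAS core at -98. *Gbp5* held 1 ISRE core at -165 and 1 GAS core at -52, and *Cxcl10* held 1 ISRE core at -213. Among the 36 members with a window, 21 (58.3%) had an ISRE core, against 1079 of 27025 genes with a window (3.99%). For 2 or more ISRE matches, which may overlap, the count was 10 members (27.8%) against 72 genes (0.266%), and for the GAS core 7 members (19.4%) against 2582 genes (9.55%). These shares are descriptions of short letter patterns, not of bound sites.

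In WT lungs, CRE raised some of the members and left others without a call. At an adjusted p below 0.05 in edgeR's quasi-likelihood test, 22 of 47 members rose, against 28.6% of all tested genes, and 1 fell, against 28.4%. The members' median log2 fold change was 0.61, against 0.01 over all tested genes. Libraries of WT_CRE lay wholly above those of WT_PBS for 36 members (34.4% of all genes) and wholly below for 3 (34.1%). All WT_PBS libraries were male, while WT_CRE replicates 2 and 3 were female, so in WT sex is partly confounded with CRE. The count of 22 was 10 with sex as a covariate and 36 when only these groups were fitted. It was 13, 13 and 14 without WT_PBS replicates 1, 2 and 3, 14 and 11 without WT_CRE replicates 1 and 2, and 33 without CKO_CRE replicate 1.

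In CKO lungs the rise covered nearly the whole set. Of the 47 members 46 rose with CRE and none fell, against 20.6% of all tested genes called higher and 18.5% called lower. The exception was *Slfn5*. The median log2 fold change was 1.71, against 0.00 over all genes, and the same 46 members had all 3 CKO_CRE libraries above all 3 CKO_PBS libraries (24.3% of all genes). The count stayed between 43 and 46 in every alternative fit, and 43 of the 46 members kept their calls throughout.

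**Figure D1:**
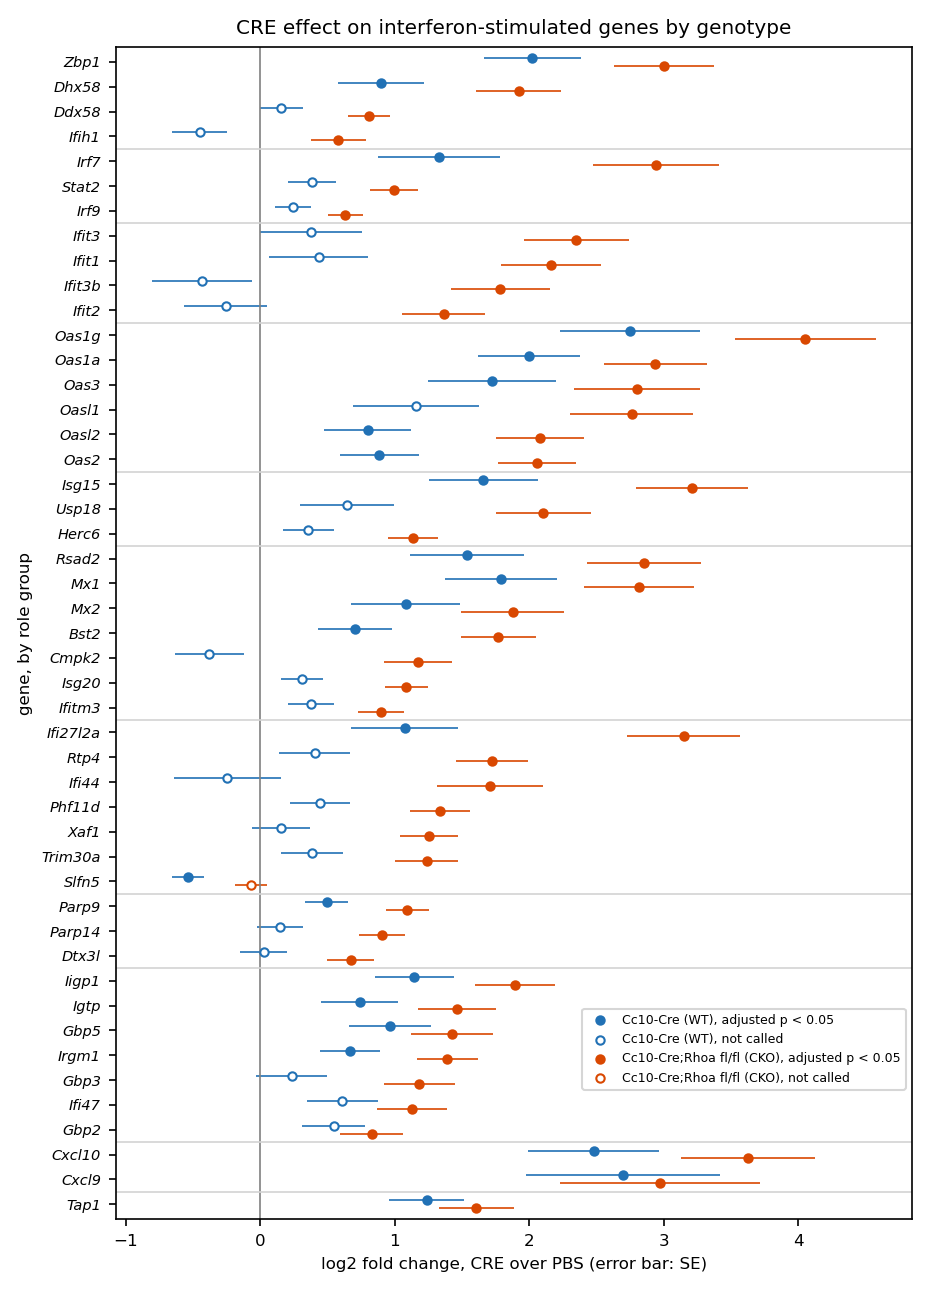
Log2 fold change of CRE over PBS for each of the 47 members (x axis) in WT (blue) and CKO (orange), by role group (y axis), with the SE as error bar and filled points at an adjusted p below 0.05. The median was 0.61 in WT and 1.71 in CKO, and the CKO value was the larger one for all 47 members.

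Without CRE the genotypes were not told apart on these genes. No member passed between CKO_PBS and WT_PBS in edgeR, DESeq2 or limma-voom, and none had an unadjusted p below 0.05 in edgeR. Over all tested genes 0.109% were called and 5.32% had an unadjusted p below 0.05. Log2 differences ran from -0.52 to 0.71 with a median of 0.00. Libraries did not overlap for 1 member higher in CKO (7.65% of all genes) and 5 lower (7.53%). Levels per kilobase of exon were led in WT_PBS by *Ifitm3* (332 CPM per kb), *Bst2* (107) and *Ifi27l2a* (53.0). In CKO_CRE the order of group means was *Ifitm3* (634 CPM per kb), *Ifi27l2a* (487), *Bst2* (285), *Ifit3* (172) and *Isg15* (159), each a mean of 3 libraries that lay far apart.

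Under CRE, the difference between CKO and WT lungs was above 0 for nearly all members, but few passed the test and none in every fit. In edgeR, 9 of 47 members were higher in CKO_CRE than in WT_CRE, against 0.549% of all tested genes, and none was lower, against 0.366%. The 9 were *Ifit1*, *Ifit2*, *Ifit3*, *Ifit3b*, *Ifi27l2a*, *Cmpk2*, *Oas2*, *Ifih1* and *Xaf1*. The median log2 difference was 0.99, against 0.01 over all genes, 46 of 47 values were above 0, and 39 members had an unadjusted p below 0.05 in the higher direction (11.0% of all genes). All CKO_CRE libraries lay above all WT_CRE libraries for 28 members (7.37% of all genes) and below them for 0 (7.69%). The count of 9 depended on the fit: it was 32 in DESeq2, 43 in limma-voom with library quality weights, 33 with no low-count filter and 0 when only these groups were fitted. Over all genes, in either direction, the main fit called 160, DESeq2 838, limma-voom 7645 and the fit with no low-count filter 691. The count of 9 also depended on single libraries. It was 38, 31 and 3 without CKO_CRE replicates 1, 2 and 3, and 0, 1 and 0 without WT_CRE replicates 1, 2 and 3. It was 1 without any one WT_PBS library and 2 without CKO_PBS replicate 3. None of the 9 kept its call in every alternative.

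The direct test of whether CRE acted more strongly in CKO lungs is the difference of the CRE effects. In edgeR it called no member, with adjusted p from 0.231 to 0.928, against 0.0458% of all tested genes called. All 47 differences were above 0, with a median of 0.98 against 0.01 over all genes, and 31 members had an unadjusted p below 0.05 in the higher direction (6.02% of all genes). DESeq2 called 4 members, limma-voom 33 and the fit with no low-count filter 8. Over all genes, in either direction, the same fits called 122, 4371 and 81, against 8 in the main fit. Leaving out CKO_CRE replicate 1 or replicate 2 gave 12 called members. A member called in CKO and not in WT is therefore not shown by edgeR to respond differently in the genotypes.

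**Figure D2:**
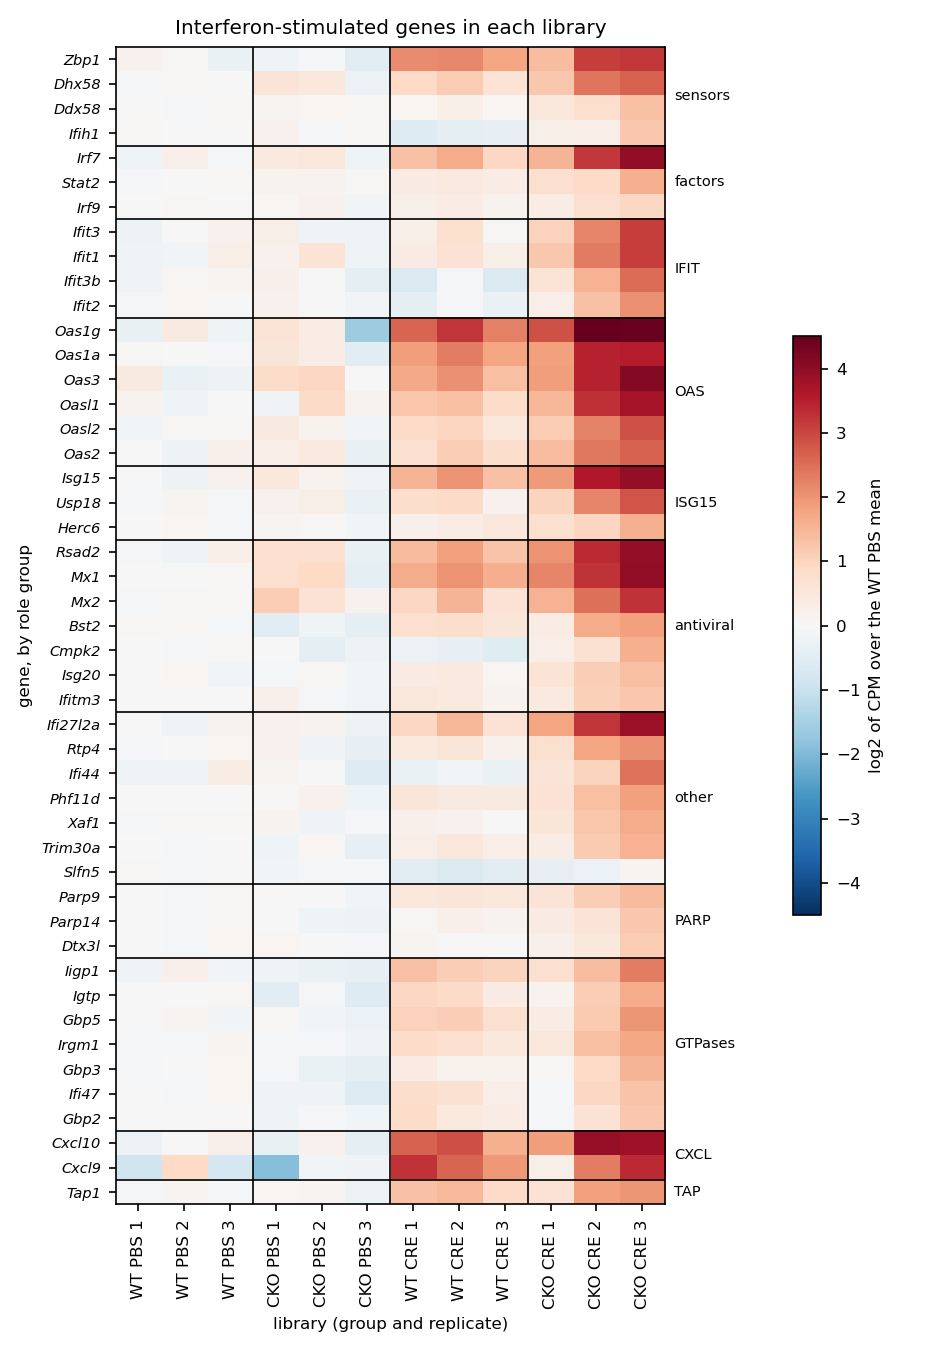
Log2 of CPM over the WT_PBS mean for the 47 members (rows, by role group) in each of the 12 libraries (columns). Within CKO_CRE every member is lowest in replicate 1, and 45 are highest in replicate 3.

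The CKO_CRE libraries stood far apart on these genes. CKO_CRE replicate 1 was the lowest of its group in 47 of 47 members, replicate 3 the highest in 45 and replicate 2 in 2. The median log2 over the WT_PBS mean was 0.64, 1.40 and 2.04 in CKO_CRE replicates 1, 2 and 3, against 0.76, 0.70 and 0.40 in WT_CRE and 0.13, 0.04 and -0.21 in CKO_PBS. The median range within CKO_CRE (log2 of CPM + 0.5) was 1.47 for the members and 0.475 for all tested genes. In WT_CRE the same ranges were 0.382 and 0.293.

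Set against all 3 WT_CRE libraries, CKO_CRE replicate 1 was higher in 28 members (37.1% of all genes) and lower in 10. The share of all genes lower in replicate 1 was not taken, so the 10 has no background to be read against. Replicate 2 was higher in 45 (27.1%), and replicate 3 in 47 (36.3%), with replicates 2 and 3 both higher in 45 (10.7%). Sex went with this split, since replicate 1 was the male CKO_CRE library. Between female CRE libraries, 2 a genotype, the median log2 ratio of CKO to WT was 1.22 and all 47 ratios were above 0. Between the single male libraries it was 0.24 with 33 above 0, and *Cxcl9* was at -3.02. No test was made within a sex, and sex and the distance between these libraries cannot be told apart.

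Markers of immune cells also differed between the CKO_CRE libraries. The summed CPM of 8 T cell markers was 86.1, 189 and 177 in CKO_CRE replicates 1, 2 and 3 and 210 to 234 in WT_CRE. For 12 NK and cytotoxic T cell markers the sums were 47.5, 89.0 and 111 in CKO_CRE and 64.2 to 126 in WT_CRE. For 8 plasmacytoid dendritic cell markers, of cells known for making type I interferon, they were 50.2, 94.2 and 76.2 in CKO_CRE and 90.5 to 98.2 in WT_CRE. Replicate 1 was lowest in each of these 3 sums, and replicates 2 and 3 did not exceed the WT_CRE range in any of them. The sums for 8 interstitial macrophage markers were 1131, 2030 and 1406 in CKO_CRE and 1901 to 2107 in WT_CRE, and for 10 monocyte markers they were 1171 to 1497 in CKO_CRE and 919 to 1037 in WT_CRE. One gene, *Ace*, carried most of the monocyte sum, with 248249 counts over all libraries against 22014 for the next, *Ccr2*. That sum is therefore mainly a reading of *Ace* and does not stand for monocytes. The monocyte markers did not move together with CRE in WT, where 4 rose and 4 fell. Between CKO_CRE and WT_CRE 9 of the 10 had a log2 difference above 0, with a median of 0.66. In edgeR 0 of the 10 were called, and 7 had an unadjusted p below 0.05 in the higher direction (11.0% of all genes). Other lists were ordered otherwise. In CKO_CRE replicates 1, 2 and 3 the neutrophil marker sums were 254, 446 and 148, and the eosinophil sums 32.7, 58.6 and 31.2. Alveolar macrophage sums were 9558, 10361 and 8296, so each of these was lowest in replicate 3. B and plasma cell sums were 536, 1320 and 1448. Club cell sums were 1455, 644 and 1157 and endothelial sums 3849, 2316 and 3401, both highest in replicate 1. No marker on these lists was without counts in all libraries, and the part of these cells in the members' values was not tested.

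Among the sensors, *Zbp1* and *Dhx58* rose in both genotypes, while *Ddx58* and *Ifih1* rose in CKO and did not pass in WT. *Zbp1*, which encodes a sensor of Z-form nucleic acid that can trigger necroptosis, had CPM of 11.7, 10.7 and 8.43 in WT_PBS and 9.04, 9.61 and 7.40 in CKO_PBS. With CRE it reached 44.5, 46.1 and 35.1 in WT and 26.9, 88.1 and 94.0 in CKO. CRE libraries were all above PBS libraries in both genotypes, and CKO_CRE replicate 1 lay below all WT_CRE libraries. The log2 fold change was 2.02 ± 0.36 in WT (adjusted p = 0.000656) and 3.00 ± 0.37 in CKO (adjusted p = 0.00022).

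*Ifih1* encodes MDA5, a receptor for long double-stranded RNA. Its CPM was 55.4, 53.1 and 53.4 in WT_PBS and 62.3, 52.2 and 55.7 in CKO_PBS, against 35.8, 40.4 and 42.2 in WT_CRE and 64.0, 66.4 and 124 in CKO_CRE. WT libraries with CRE were thus all below, and CKO libraries with CRE all above, those with PBS. The fall in WT did not pass (log2 -0.45 ± 0.21, adjusted p = 0.0791) and the rise in CKO did (0.58 ± 0.20, adjusted p = 0.0397), as did the difference between CKO_CRE and WT_CRE (1.10 ± 0.21, adjusted p = 0.032). The CKO rise was near the threshold and was lost without any one of 10 libraries. The call between CKO_CRE and WT_CRE held in 5 of the 12 fits with 1 library left out.

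The members that encode transcription factors of this response rose in CKO, and of these *Irf7* rose in WT too. *Irf7*, the factor that drives further interferon production, had CPM of 20.7, 28.0 and 23.1 in WT_PBS, 32.6, 33.8 and 20.7 in CKO_PBS, 59.4, 75.2 and 45.8 in WT_CRE and 69.0, 218 and 382 in CKO_CRE. Its log2 fold change was 1.33 ± 0.46 in WT (adjusted p = 0.0255) and 2.94 ± 0.47 in CKO (adjusted p = 0.000859). The WT call was lost without WT_PBS replicate 1 or 3 or WT_CRE replicate 1 or 2. Between CKO_CRE and WT_CRE the libraries overlapped, and the log2 difference of 1.89 ± 0.45 did not pass (adjusted p = 0.0724).

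*Irf9*, the DNA-binding partner of STAT2, moved over a narrow range. CPM was 65.5, 69.0 and 65.2 in WT_PBS, 70.7, 75.5 and 61.0 in CKO_PBS, 79.1, 83.2 and 74.5 in WT_CRE and 84.2, 109 and 128 in CKO_CRE. The 4 groups stepped up without overlap from PBS to WT_CRE to CKO_CRE, apart from CKO_PBS replicate 2, which lay above WT_CRE replicate 3. Only the CRE effect in CKO passed (log2 0.63 ± 0.13, adjusted p = 0.00346), as it was 0.25 ± 0.13 in WT (adjusted p = 0.13).

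The IFIT genes, a family in which IFIT1 binds viral RNA lacking normal cap methylation, showed the widest separation between the genotypes. None of the 4 passed with CRE in WT, where the median log2 was 0.06. All 4 rose in CKO (20.6% of all genes), with a median of 1.97. All 4 were also higher in CKO_CRE than in WT_CRE (0.549% of all genes), again with a median of 1.97 and no overlap of libraries (7.37%). That count of 4 was 0 without WT_CRE replicate 1 or 3 and when only these groups were fitted, 1 without WT_CRE replicate 2, CKO_CRE replicate 3 or any one WT_PBS library, and 2 without CKO_PBS replicate 3. *Ifit3* had CPM of 50.2, 60.1 and 66.8 in WT_PBS, 71.3, 52.5 and 52.9 in CKO_PBS, 71.0, 96.9 and 61.8 in WT_CRE and 121, 272 and 506 in CKO_CRE. Its lowest CKO_CRE library was above every other library of the study, while WT_CRE and WT_PBS overlapped. The log2 fold change with CRE was 2.35 ± 0.39 in CKO (adjusted p = 0.00109) and 0.38 ± 0.38 in WT (adjusted p = 0.414). The log2 difference under CRE was 1.97 ± 0.39 (adjusted p = 0.038), a call held in 2 of the 12 fits with 1 library left out.

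*Ifit3b* is a close copy of *Ifit3*, with 97.8% identity over 1700 bases of transcript, so reads may be split between them. CPM of *Ifit3b* was 15.4, 17.9 and 18.6 in WT_PBS, 20.2, 17.6 and 13.02 in CKO_PBS, 11.0, 16.4 and 10.9 in WT_CRE and 26.3, 50.8 and 97.7 in CKO_CRE. Under CRE its log2 difference between the genotypes was 2.19 ± 0.38 (adjusted p = 0.0212), lost without WT_CRE replicate 1 or 3. With the counts of both genes summed the difference was 2.003 (adjusted p = 0.034). *Ifit2* had CPM of 39.1, 44.2 and 40.4 in WT_PBS, 47.1, 40.6 and 37.9 in CKO_PBS, 30.2, 39.5 and 33.9 in WT_CRE and 50.6, 103 and 170 in CKO_CRE. The WT groups overlapped and CKO_CRE stood above all other libraries, with a log2 difference of 1.64 ± 0.31 between the genotypes under CRE (adjusted p = 0.0331). For *Ifit2* that call held in 4 of the 12 fits with 1 library left out.

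The OAS genes encode synthetases of oligoadenylates that activate RNase L, and related proteins. With CRE 5 of 6 rose in WT (28.6% of all genes), with a median log2 of 1.44. In CKO 6 of 6 rose (20.6%), with a median of 2.78. *Oas1g* had CPM of 1.36, 2.32 and 1.53 in WT_PBS, 2.64, 2.17 and 0.577 in CKO_PBS, 10.7, 16.2 and 8.34 in WT_CRE and 12.7, 38.5 and 38.0 in CKO_CRE. Every CRE library was above every PBS library, and CKO_CRE replicate 1 lay within the WT_CRE range. Its log2 fold change of 4.05 ± 0.52 in CKO (adjusted p = 0.000264) was the largest among the members in either genotype. In WT it was 2.75 ± 0.52 (adjusted p = 0.00094). *Oas1g* and *Oas1a* match at 97.6% over 1861 bases, and their summed counts gave 3.16 in CKO and 2.14 in WT.

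*Oas2* had CPM of 10.1, 8.66 and 12.1 in WT_PBS, 12.6, 14.0 and 8.17 in CKO_PBS, 16.8, 22.1 and 17.9 in WT_CRE and 27.2, 53.0 and 65.0 in CKO_CRE. It was the only one of the 6 called between CKO_CRE and WT_CRE (log2 1.35 ± 0.28, adjusted p = 0.0492), a value at the threshold that was lost without any one of 10 libraries. The log2 differences of the other OAS genes under CRE ran from 1.13 to 1.95. Each had an unadjusted p below 0.05, as did 11.0% of all genes in the higher direction.

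ISG15 is a ubiquitin-like modifier, HERC6 attaches it in mice, and USP18 removes it and restrains type I interferon receptor signalling. All 3 genes rose in CKO (20.6% of all genes), and *Isg15* alone passed in WT (28.6% higher). *Isg15* had CPM of 11.5, 9.97 and 13.3 in WT_PBS, 16.1, 12.9 and 10.1 in CKO_PBS, 33.6, 47.1 and 29.0 in WT_CRE and 43.9, 139 and 178 in CKO_CRE. CKO_CRE replicate 1 fell between WT_CRE libraries, and the other CKO_CRE libraries were above them. The log2 difference between the genotypes under CRE was 1.72 ± 0.39 (adjusted p = 0.0625). *Herc6* had CPM of 15.6, 16.7 and 14.6 in WT_PBS, 16.8, 16.03 and 14.2 in CKO_PBS, 18.1, 19.6 and 22.2 in WT_CRE and 25.8, 30.4 and 47.2 in CKO_CRE. It rose in CKO (log2 1.14 ± 0.19, adjusted p = 0.00106) and not by the test in WT (0.36 ± 0.19, adjusted p = 0.125).

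**Figure D3:**
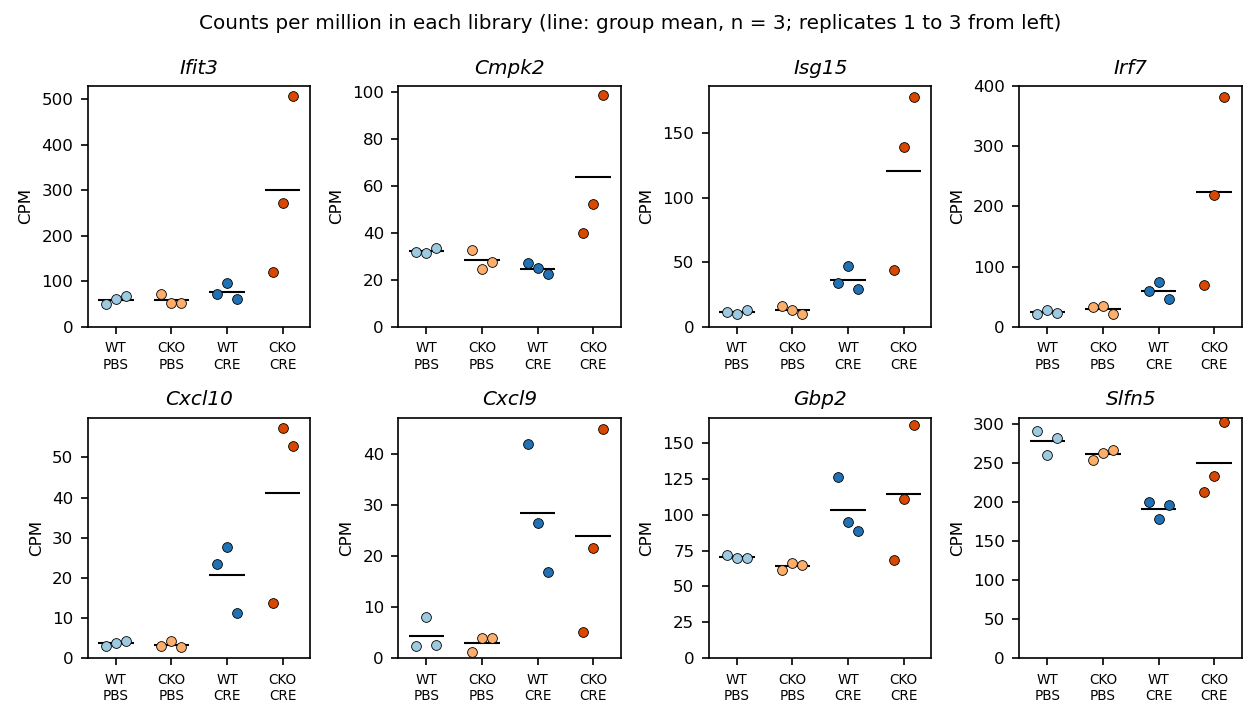
CPM of 8 members in each library, with groups on the x axis, replicates 1 to 3 from left within each group and the mean as a line. *Ifit3* and *Cmpk2* separate CKO_CRE from all other libraries, whereas *Cxcl9* and *Gbp2* in CKO_CRE span the WT_CRE values.

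Of the Mx and other antiviral genes, 4 of 7 rose in WT (28.6% of all genes) and 7 of 7 in CKO (20.6%). *Rsad2*, which encodes the antiviral enzyme viperin, had CPM of 6.21, 5.79 and 7.90 in WT_PBS, 11.2, 11.0 and 5.24 in CKO_PBS, 17.8, 23.8 and 16.04 in WT_CRE and 26.8, 67.4 and 104 in CKO_CRE. The 4 groups were ordered with CKO_CRE above WT_CRE and both above PBS, without overlap. Log2 fold changes with CRE were 1.54 ± 0.43 in WT (adjusted p = 0.00885) and 2.85 ± 0.42 in CKO (adjusted p = 0.000568), and the difference under CRE was 1.78 ± 0.40 (adjusted p = 0.0631).

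*Cmpk2*, a mitochondrial nucleotide kinase gene on chromosome 12 like *Rsad2*, did not follow it in WT. Its CPM was 32.03, 31.3 and 33.6 in WT_PBS, 32.8, 24.5 and 27.5 in CKO_PBS, 27.2, 24.97 and 22.4 in WT_CRE and 40.2, 52.2 and 98.9 in CKO_CRE. WT_CRE libraries were below WT_PBS libraries (log2 -0.38 ± 0.26, adjusted p = 0.224), and CKO_CRE libraries were above all others. The rise in CKO was 1.17 ± 0.26 (adjusted p = 0.00436) and the difference under CRE 1.36 ± 0.26 (adjusted p = 0.0331). That difference kept its call in 5 of the 12 fits with 1 library left out. *Cmpk2* and *Ifit3b* had the smallest adjusted p for the difference of CRE effects, 0.231 for both, at 1.55 ± 0.36 and 2.22 ± 0.52.

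*Ifitm3*, whose product blocks virus entry at endosomes, was the most abundant member per kilobase. Its CPM was 226, 227 and 224 in WT_PBS, 262, 220 and 209 in CKO_PBS, 317, 305 and 254 in WT_CRE and 302, 469 and 518 in CKO_CRE. The log2 fold change with CRE passed in CKO (0.90 ± 0.17, adjusted p = 0.00224) and not in WT (0.38 ± 0.17, adjusted p = 0.0785). CKO_CRE replicate 1 lay among the WT_CRE libraries.

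Among the 7 other interferon-induced genes, 6 rose in CKO (20.6% of all genes). In WT *Ifi27l2a* rose (28.6%) and *Slfn5* fell (28.4%). *Ifi27l2a*, a small interferon-induced membrane protein gene, had CPM of 24.4, 21.9 and 27.4 in WT_PBS, 28.4, 27.1 and 20.9 in CKO_PBS, 46.7, 69.6 and 38.6 in WT_CRE and 84.7, 228 and 364 in CKO_CRE. PBS, WT_CRE and CKO_CRE libraries did not overlap. The difference between the genotypes under CRE was log2 2.13 ± 0.40 (adjusted p = 0.032), and the CRE effect was 3.15 ± 0.42 in CKO (adjusted p = 0.000302) and 1.07 ± 0.40 in WT (adjusted p = 0.0363). The WT call was lost without any one WT_PBS library or WT_CRE replicate 1 or 2. The call between CKO_CRE and WT_CRE held in 4 of the 12 fits with 1 library left out. *Xaf1*, a gene whose product binds the apoptosis inhibitor XIAP, had CPM of 23.9, 26.0 and 25.9 in WT_PBS, 28.2, 22.1 and 23.9 in CKO_PBS, 29.8, 29.1 and 25.5 in WT_CRE and 36.6, 59.7 and 80.3 in CKO_CRE. It did not pass with CRE in WT (log2 0.15 ± 0.22, adjusted p = 0.566) and was higher in CKO_CRE than in WT_CRE by 1.07 ± 0.21 (adjusted p = 0.0413). That call held in 2 of the 12 fits with 1 library left out.

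*Slfn5*, a Schlafen family gene, was the exception. CPM was 291, 261 and 282 in WT_PBS, 254, 262 and 267 in CKO_PBS, 200, 179 and 196 in WT_CRE and 213, 233 and 302 in CKO_CRE. WT_CRE lay below every other library, and CKO_CRE spanned the PBS values. CRE lowered it in WT (log2 -0.54 ± 0.12, adjusted p = 0.00229), a call kept in every alternative, and in CKO the value was -0.07 with a 95% interval of -0.30 to 0.16. Its antisense gene *Slfn5os* overlaps it, and without strand information their reads cannot be told apart.

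*Parp9* and *Dtx3l* encode partners in a complex that modifies proteins with ADP-ribose and ubiquitin. They lie head to head on chromosome 16 and overlap on opposite strands. *Parp9* had CPM of 49.4, 45.1 and 50.6 in WT_PBS, 49.2, 48.1 and 44.8 in CKO_PBS, 66.9, 70.1 and 67.7 in WT_CRE and 71.6, 103 and 129 in CKO_CRE. *Dtx3l* had 55.0, 52.6 and 58.7 in WT_PBS, 58.5, 54.3 and 53.9 in CKO_PBS, 59.9, 55.2 and 54.2 in WT_CRE and 65.3, 77.8 and 123 in CKO_CRE. In WT *Parp9* rose with CRE (log2 0.50 ± 0.16, adjusted p = 0.0187), a call lost without WT_PBS replicate 2 or WT_CRE replicate 2. *Dtx3l* did not pass in WT (0.03 ± 0.18, adjusted p = 0.914), and the difference between these genes was not tested. In CKO both rose, by 1.09 ± 0.16 and 0.67 ± 0.18.

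The interferon-inducible GTPases, which coat and break the vacuoles of intracellular microbes and are classic targets of interferon-gamma, rose with CRE in CKO and, in part, in WT. With CRE 4 of 7 rose in WT (28.6% of all genes), with a median log2 of 0.67. In CKO 7 of 7 rose (20.6%), with a median of 1.39. Between CKO_CRE and WT_CRE none of the 7 passed in edgeR or DESeq2, 2 had an unadjusted p below 0.05 in edgeR, and 5 passed in limma-voom. Over all genes edgeR called 0.549% higher and 0.366% lower, and 11.0% had an unadjusted p below 0.05 in the higher direction. In either direction, DESeq2 called 838 and limma-voom 7645 of 17473 genes. Without CKO_CRE replicate 1, edgeR called 2 of them, *Gbp3* and *Irgm1*. The libraries overlapped for all 7, and the median log2 difference was 0.36. *Iigp1* had CPM of 47.3, 62.0 and 49.0 in WT_PBS, 46.2, 43.4 and 40.6 in CKO_PBS, 132, 113 and 106 in WT_CRE and 86.5, 140 and 258 in CKO_CRE. It rose in WT (log2 1.15 ± 0.29, adjusted p = 0.0055) and in CKO (1.90 ± 0.30, adjusted p = 0.000776), with CKO_CRE on both sides of WT_CRE. *Gbp2* had CPM of 72.1, 69.7 and 70.1 in WT_PBS, 61.3, 66.6 and 64.9 in CKO_PBS, 126, 95.2 and 88.7 in WT_CRE and 68.6, 111 and 163 in CKO_CRE. Its log2 difference between CKO_CRE and WT_CRE was 0.14, with a 95% interval of -0.31 to 0.60.

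In PBS lungs these 7 GTPase genes all had values below 0 for CKO against WT, with a median log2 of -0.23. For 4 of them CKO_PBS libraries were wholly below WT_PBS libraries (7.53% of all genes), and none passed the test (0 with an unadjusted p below 0.05).

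*Cxcl9* and *Cxcl10* encode ligands of CXCR3, the receptor that draws activated T cells and NK cells, and both rose with CRE in both genotypes. *Cxcl10* had CPM of 3.08, 3.78 and 4.36 in WT_PBS, 2.95, 4.30 and 2.74 in CKO_PBS, 23.4, 27.8 and 11.4 in WT_CRE and 13.8, 57.2 and 52.7 in CKO_CRE. Its log2 fold change was 2.48 ± 0.49 in WT (adjusted p = 0.00116) and 3.63 ± 0.50 in CKO (adjusted p = 0.000366). *Cxcl9* had CPM of 2.32, 8.16 and 2.53 in WT_PBS, 1.14, 4.02 and 3.89 in CKO_PBS, 41.8, 26.4 and 16.9 in WT_CRE and 5.17, 21.5 and 44.9 in CKO_CRE. CKO_CRE replicate 1 was close to the PBS level for *Cxcl9*, and replicate 3 above all WT_CRE libraries. The difference between CKO_CRE and WT_CRE did not pass for either gene in edgeR, at 0.99 ± 0.44 for *Cxcl10* and -0.25 for *Cxcl9*, with a 95% interval of -1.53 to 1.04.

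*Tap1*, a subunit of the transporter that feeds peptides to MHC class I, had CPM of 64.6, 74.3 and 65.6 in WT_PBS, 72.2, 74.5 and 56.9 in CKO_PBS, 169, 188 and 125 in WT_CRE and 106, 245 and 269 in CKO_CRE. It rose by log2 1.24 ± 0.28 in WT (adjusted p = 0.00253) and 1.61 ± 0.28 in CKO (adjusted p = 0.00133). CKO_CRE libraries lay on both sides of the WT_CRE range, and the log2 difference of 0.36 had a 95% interval of -0.17 to 0.89.

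The remaining members followed the same pattern with CRE. *Dhx58*, *Oas1a*, *Oas3*, *Oasl2*, *Mx1*, *Mx2*, *Bst2*, *Gbp5*, *Igtp* and *Irgm1* passed in both genotypes, with log2 from 0.67 (*Irgm1*) to 1.997 (*Oas1a*) in WT and from 1.39 (*Irgm1*) to 2.94 (*Oas1a*) in CKO. *Ddx58*, *Stat2*, *Ifit1*, *Oasl1*, *Usp18*, *Isg20*, *Ifi44*, *Rtp4*, *Phf11d*, *Trim30a*, *Parp14*, *Gbp3* and *Ifi47* passed in CKO alone, with log2 from 0.81 (*Ddx58*) to 2.76 (*Oasl1*). The WT calls of *Dhx58*, *Oasl2*, *Mx2*, *Bst2*, *Gbp5*, *Igtp* and *Irgm1* were each lost without at least 1 single library. For the members called in CKO alone, WT values ran from -0.24 (*Ifi44*) to 1.16 (*Oasl1*). Of these 23 members *Ifit1* alone was called between CKO_CRE and WT_CRE, at log2 1.98, and in 5 of the 12 fits with 1 library left out.

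Some values carry limits from the annotation. In GENCODE M21, 11 members overlap another gene on the opposite strand, among them *Irf7*, *Usp18*, *Cxcl10*, *Gbp2* and *Tap1*, and 6 overlap one on the same strand, among them *Irf9*, *Herc6*, *Rtp4* and *Igtp*. *Phf11d* shares 98.1% identity over 322 bases with *Phf11a*. No member lies on chromosome 9.

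Interferon transcripts themselves were scarce. Of 21 interferon genes only *Ifng* was tested, with 21, 11, 34 and 43 counts over the 3 libraries of WT_PBS, CKO_PBS, WT_CRE and CKO_CRE. Its CPM was 0.455, 0.504 and 0.118 in WT_PBS, 0.155, 0.323 and 0.048 in CKO_PBS, 0.82, 0.656 and 0.481 in WT_CRE and 0.601, 1.05 and 0.882 in CKO_CRE. *Ifng* passed with CRE in CKO (log2 2.21 ± 0.60, adjusted p = 0.013), not in WT (0.82 ± 0.56, adjusted p = 0.232), and not between CKO_CRE and WT_CRE (0.38 ± 0.52). *Ifnb1* had 1 count in all, in CKO_CRE, and *Ifnl2* and *Ifnl3*, which encode type III interferons, had 7 and 2 counts, in each case all in a single CKO_CRE library. *Ifne* and *Ifnz* had 3 counts each, in each case all in a single WT_CRE library, and *Ifnk* had 2 in CKO_PBS, 6 in WT_CRE and 4 in CKO_CRE. The interferon-alpha genes had 0 counts in every library, which allows up to 3 counts per library by counting error alone.

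Genes that carry the interferon signal were counted on 4 lists, to be read against the shares of all tested genes called with CRE, 28.6% higher and 28.4% lower in WT and 20.6% higher and 18.5% lower in CKO. Of 9 receptor and kinase genes 5 rose and 2 fell in WT, and 5 rose and 1 fell in CKO. Of 7 other STAT and IRF genes 4 rose in WT and 3 in CKO, of 13 nucleic acid sensing and adaptor genes 9 rose and 1 fell in WT and 8 rose in CKO, and of 11 inhibitor genes 8 rose and 2 fell in WT and 9 rose and 2 fell in CKO. In WT the STAT and IRF count is near the share of all genes called in either direction, although all 4 calls were higher, as were 28.6% of all genes. With 7 genes on that list, the count is small. Between CKO_CRE and WT_CRE no gene of these lists was called in edgeR, where 0.549% of all genes were called higher and 0.366% lower. The lists held, in that order, 1, 0, 3 and 2 genes at an unadjusted p below 0.05 in the higher direction in edgeR. DESeq2 called 1, 0, 1 and 1 genes higher and none lower. In limma-voom 3, 1, 3 and 4 were called higher and 3, 0, 2 and 3 lower. Of all 17473 tested genes, in either direction, DESeq2 called 838 and limma-voom 7645. The limma-voom counts are therefore to be read against its own 7645 calls, not against the edgeR shares. The edgeR medians of the lists were 0.02, -0.03, 0.06 and 0.02.

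*Irf1*, a transcription factor gene induced early by interferon-gamma, did not pass with CRE in either genotype (0.17 ± 0.13 in WT and 0.14 ± 0.13 in CKO). *Socs1*, a feedback inhibitor of JAK kinases, rose by 3.31 ± 0.31 in WT and 2.61 ± 0.31 in CKO, with CPM of 31.0 to 61.1 in WT_CRE and 18.6 to 37.3 in CKO_CRE.

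Interferon-induced genes outside the members were counted on lists of type I and of interferon-gamma targets. Of 36 further type I genes 13 rose and 5 fell with CRE in WT, the higher count being near the background (28.6% of all genes higher, 28.4% lower). In CKO 26 rose (20.6% of all genes), and the median log2 was 0.27 in WT and 0.78 in CKO. Between CKO_CRE and WT_CRE 5 were higher (0.549% of all genes), with a list median of 0.52. That count was 13 in DESeq2, 28 in limma-voom and 15 with no low-count filter, fits that called 838, 7645 and 691 genes in all. It was 17, 15 and 2 without CKO_CRE replicates 1, 2 and 3, and 1 without CKO_PBS replicate 1. It was 0 without any other single library or when only these groups were fitted. The 5, named because the count is small, were *Eif2ak2*, *Ifit1bl2*, *Samd9l*, *Tdrd7* and *Znfx1*. *Eif2ak2*, the gene of the antiviral kinase PKR, had CPM of 45.2 to 51.4 in WT_CRE and 66.7 to 116 in CKO_CRE (log2 0.84 ± 0.16, adjusted p = 0.0359), and in the other 4 CRE lowered the WT level.

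Of 32 further interferon-gamma genes 17 rose and 2 fell with CRE in WT (28.6% and 28.4% of all genes) and 26 rose in CKO (20.6%), with median log2 of 0.72 and 0.98. Between CKO_CRE and WT_CRE none was higher (0.549% of all genes) and 2 were lower (0.366%) in edgeR, with a list median of 0.09 and 2 genes at an unadjusted p below 0.05 in the higher direction. DESeq2 called 0 higher and 2 lower, and limma-voom 9 higher and 4 lower. Of all 17473 tested genes, in either direction, limma-voom called 7645, DESeq2 838 and edgeR 160. The limma-voom counts are therefore to be read against its own 7645 calls, not against the edgeR shares. The edgeR count of 2 lower genes was 1 without CKO_CRE replicate 1 or CKO_PBS replicate 1, 3 without CKO_CRE replicate 2, 2 without CKO_PBS replicate 2, and 0 without any other single library. The 2 were *Nos2*, the inducible nitric oxide synthase gene, and *Serpina3g*, a serine protease inhibitor gene. *Nos2* had CPM of 130 to 174 in WT_CRE and 6.13 to 46.0 in CKO_CRE (log2 -2.69 ± 0.50, adjusted p = 0.0317). *Serpina3g* had 149 to 206 in WT_CRE and 78.5 to 110 in CKO_CRE (log2 -0.86 ± 0.18, adjusted p = 0.044). Both were also higher with CRE than with PBS within CKO.

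**Figure D4:**
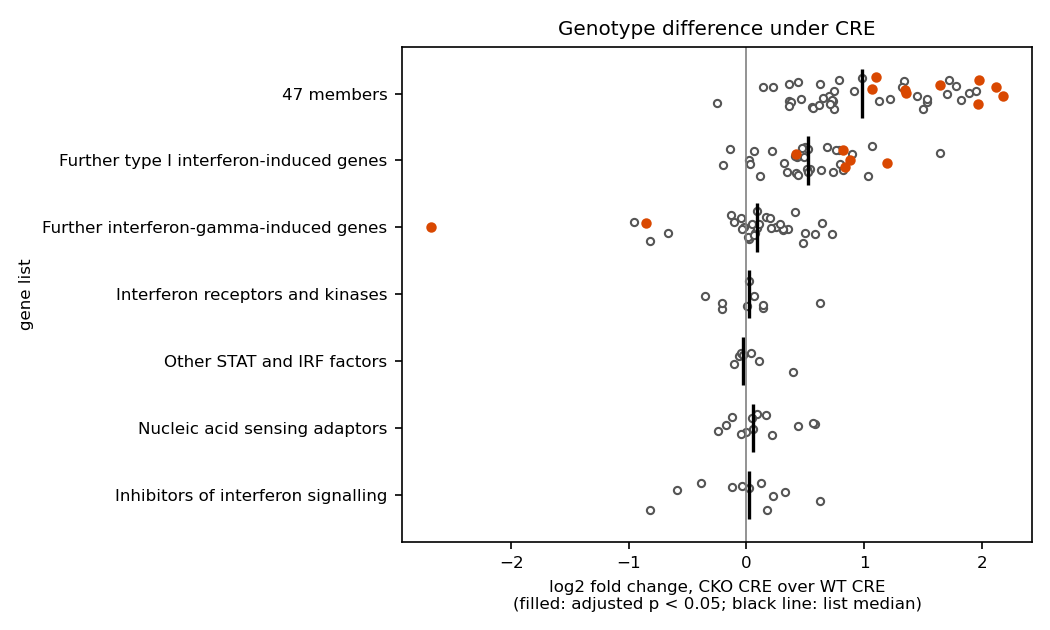
Log2 difference between CKO_CRE and WT_CRE (x axis) for each tested gene of 7 lists (y axis), with filled points at an adjusted p below 0.05 and the list median as a black line. The medians were 0.99 for the 47 members, 0.52 for further type I genes and 0.09 for further interferon-gamma genes.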

How the data were processed

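Polyadenylated RNA from mouse lung was sequenced, and the authors deposited read counts per Ensembl gene for 12 libraries, whole numbers with no normalization. Fastp, STAR and the mm10 build are named in the submitters' processing notes, while which program counted the reads, with which strand setting and annotation, is not given in the sources used here. Groups came from the sample titles. Library totals ran from 16250674 to 21559210 counts. Symbols, positions and overlaps were taken from GENCODE M21 (GRCm38), which matched 54495 of 54532 identifiers. Near-identical copies were transcripts matching at 98% or more over at least 200 bases (blastn 2.17.0).

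The main test was edgeR 4.0.16 (R 4.3.3): TMM scaling, its default low-count filter, 1 mean per group over all 12 libraries, the quasi-likelihood F test, and Benjamini-Hochberg adjustment over 17473 genes, called at 0.05. Errors beside log2 values are SE, and the 95% intervals are normal approximations from it. The test was checked on simulated data, in which the libraries of a group shared 1 mean for each gene. That check therefore did not cover a joint spread of many genes between libraries, as seen in CKO_CRE. Alternatives were DESeq2 1.42.0, limma-voom 3.58.1 with quality weights, other scalings, no filter, a replicate block, sex as a covariate, only the groups compared, and each library left out. Values within 1 sex were added after seeing the data.

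Values in every library are given for the members with the largest and the smallest CRE effect in CKO in each role group, the 6 members with the smallest p for the difference of CRE effects, and members called lower. Of the pathway lists, tested interferon genes, *Irf1*, *Irf8* and genes with the largest difference of CRE effects could be named. Genes named for a small count of calls were chosen after their values were seen. The lists overlap in *Irf1*, *Irf3* and *Socs1*. The members and lists were chosen with earlier results of these data known. One gene of the pathway lists is not reported here.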

Additional observations from a re-analysis of the deposited data

How the results depend on the processing

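No called log2 value of a member changed sign in the alternatives fitted. In CKO, 43 of 46 calls held under all of them, in WT 11 of 23, and between CKO_CRE and WT_CRE 0 of 9. For the CRE effect in WT, the count of 22 higher members was 10 with sex as a covariate, 36 with only the groups compared and 11 to 33 with 1 library left out. The count of 1 lower was 2 in limma-voom, 2 with no filter, 4 with only the groups compared and 1 to 3 with 1 library left out, and the median of 0.61 was 0.41 with sex, 0.76 in males and 0.51 to 0.74 with 1 library left out. For the CRE effect in CKO, the median of 1.71 was 0.73 in males and 1.19 (without CKO_CRE replicate 3) to 2.02 with 1 library left out, and the 6830 genes called were 3812 with only the groups compared and 4767 to 7778 with 1 library left out. Between genotypes under PBS, the 19 genes called were 114 in DESeq2, 146 in limma-voom, 89 with no filter, 74 with only the groups compared and 12 to 53 with 1 library left out. Between genotypes under CRE, the 9 members were 32 in DESeq2, 43 in limma-voom, 33 with no filter, 0 with only the groups compared, 12 with library totals alone and 0 to 38 with 1 library left out, the median of 0.99 was 0.24 in males and 0.73 to 1.28 with 1 library left out, and the 160 genes were 838, 7645, 691 and 29 in the first 4 of these and 38 to 5112 with 1 library left out. For the difference of CRE effects, the 0 members were 4 in DESeq2, 33 in limma-voom, 8 with no filter and 0 to 12 with 1 library left out, with medians of 0.61 to 1.31, and the 8 genes were 122, 4371, 81, 5 with library totals, 2 with sex and 0 to 2660 with 1 library left out. The cause of these shifts was not tested, except that fits with fewer libraries have fewer residual degrees of freedom.

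Replicate numbers do not pair the samples by the labels, and same-numbered libraries deviated together above a correlation of 0.1 in 4 of 18 pairs (-0.03 to 0.18), with 8 of 12 libraries correlating best with their own number. With the replicate block, 5 members were called between genotypes under CRE and 0 genes for the difference of CRE effects. Of the interferon genes only *Ifng* had enough counts to be tested, and at these depths low and absent transcripts of the others cannot be told apart.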
